A study of Mus musculus with 16 samples.

Results

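Acute phase proteins are plasma proteins, made largely by hepatocytes, whose levels change after infection or injury. The genes analysed here were Saa1, Saa2, Saa3, Saa4, Lcn2, Orm1, Orm2, C3 and Crp, that is, 9 of the 30214 gene names on the array, chosen because the gene name in the array files was equal to one of these symbols. They were covered by 10 probes. In all, 7 of the 9 genes passed the detection filter and were tested among 19365 genes, whereas Saa2 and Saa4 did not pass it.

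The samples came from AML12, a non-tumourigenic mouse hepatocyte line, infected with a lentiviral vector that expresses an shRNA under doxycycline and selected with puromycin. Scramble cells carried a control shRNA, and shRNA cells carried an shRNA that, according to the study's methods, targets eIF6, a translation initiation factor that binds the large ribosomal subunit and keeps it from joining the small one. All cells of both populations received doxycycline and then insulin (100 nM for 1 h), in a medium that also held an insulin supplement and dexamethasone, a glucocorticoid, so no group was without insulin, doxycycline or glucocorticoid. Lysates were separated on sucrose gradients, and RNA was pooled into a subpolysomal part (free particles, ribosomal subunits and monosomes) and a polysomal part (mRNAs that carry several ribosomes). Each of the 4 groups (scramble polysomal, scramble subpolysomal, shRNA polysomal and shRNA subpolysomal) had 4 arrays, described by the authors as biological replicates of this 1 cell line.

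Hepatocytes start the acute phase programme when interleukin-6, interleukin-1 or related cytokines reach them, through STAT3, NF-kappaB and C/EBP transcription factors, and glucocorticoids reinforce it. The amount of protein then follows both the amount of mRNA and how densely ribosomes load it. Levels of an mRNA in polysomal and subpolysomal RNA were therefore compared between the 2 cell populations, first within each fraction and then as the difference of the 2 changes, called the change in translational efficiency.

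Between 20177 and 24953 probes per array were well above background, and Eif6 itself, which all arrays measured, was 2.08-fold lower in shRNA than in scramble polysomal RNA (12.95 ± 0.01 and 11.89 ± 0.08 log2 intensity, SD, n = 4) and did not differ detectably in subpolysomal RNA (11.60 ± 0.06 and 11.61 ± 0.14). Of the 8 hepatocyte markers, Hnf4a, Apob, Krt8, Krt18 and Ttr were well above background on all 16 arrays. Alb, the albumin gene, was above it on 3 of 4 scramble polysomal arrays, on 0 of 4 scramble subpolysomal arrays, and on 2 of 4 arrays in each shRNA group. Apoa1 was above it on 2 arrays, both shRNA polysomal, so some defining hepatocyte transcripts were at the limit of detection in this line. Scramble polysomal arrays 1 and 4 had lower spike-in signals (12.39 and 12.12 on the log2 scale) than arrays 2 and 3 (12.92 and 13.54) and the highest median signals of their group before normalization. Their part in the results below was not tested, but each polysomal result was also computed without them. Values without them are given below for some genes, and not for the polysomal changes of Lcn2, Orm1 and Orm2.

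The stretches of mRNA that the array read are shown for Saa3, which fell in both fractions, for Orm1 and Orm2, which rose in both and are close relatives, and for C3, which rose on polysomes. Whether a probe lies in an exon's coding part or elsewhere was not analysed here. Each is a 60-base probe sequence from the array files, written 5′ to 3′ in lower case.
Saa3 (chr7:53970389-53970448, minus strand, mm9): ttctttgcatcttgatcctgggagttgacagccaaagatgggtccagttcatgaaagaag
Orm1 (chr4:63006483-63007090, plus strand, mm9): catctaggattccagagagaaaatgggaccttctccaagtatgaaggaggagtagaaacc
Orm2 (chr4:63024979-63025038, plus strand, mm9): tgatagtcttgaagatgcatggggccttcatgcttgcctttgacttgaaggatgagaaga
C3 (chr17:57343678-57343737, minus strand, mm9): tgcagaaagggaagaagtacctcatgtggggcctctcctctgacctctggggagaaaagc
The 60 bases of the Orm1 probe span 608 bases of genome, so this probe skips an intron. Orm1 and Orm2 are close relatives, and their 2 probes lie at different places and differ by 30 edits over 60 bases. No probe of another gene came closer than 23 edits to any of the 10 probes. Probes were compared here with other probes and not with transcripts. Whether the Orm1 or Orm2 probe also matches the mRNA of a relative was therefore not analysed, and their signals may not be separate. The other probes read Lcn2 at chr2:32240199-32240258, Crp at chr1:174629343-174629402, Saa1 at chr7:53996070-53996129, Saa2 at chr7:54009622-54009681 and Saa4 at chr7:53983662-53983721, and C3 had another probe, spotted 10 times on each array, at chr17:57343416-57343475.

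On polysomes, 5 of the 7 tested genes changed with the shRNA (adjusted p below the threshold of 0.05, limma with Benjamini-Hochberg adjustment over all genes). Saa3 and Lcn2 were lower, and Orm1, Orm2 and C3 were higher, while Crp and Saa1 did not pass the test. With any single array left out, 3 to 4 genes were called, and the calls of Orm2 and C3 lay close to the threshold. Among all 19365 genes, 10.7% were called lower and 11.1% higher, which is the background for these 2 and 3 of 7 genes. In subpolysomal RNA, 4 genes were called: Saa3 was lower, and Orm1, Orm2 and Lcn2 were higher, beside 12.3% and 11.8% of all genes called lower and higher. The median change of the 7 genes was -0.10 on polysomes and 0.37 in subpolysomes on the log2 scale, whereas the median of all genes was 0.02 in both. Scaled to the spike-in probes, the median gene shifted by -0.47 and -0.23, and 1056 genes were called lower and 101 higher on polysomes in place of 2072 and 2144. Relative to that shift, Saa3 had -1.15 and -0.99, Lcn2 -0.52 and 0.33, Orm1 1.14 and 1.42, Orm2 0.97 and 1.78, and C3 0.48 and 0.31, but Saa3 on polysomes alone was called of these. The acute phase genes did not move as 1 group: the range ran from -1.08 to 1.15 on polysomes and from -0.98 to 1.95 in subpolysomes.

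**Figure D1:**
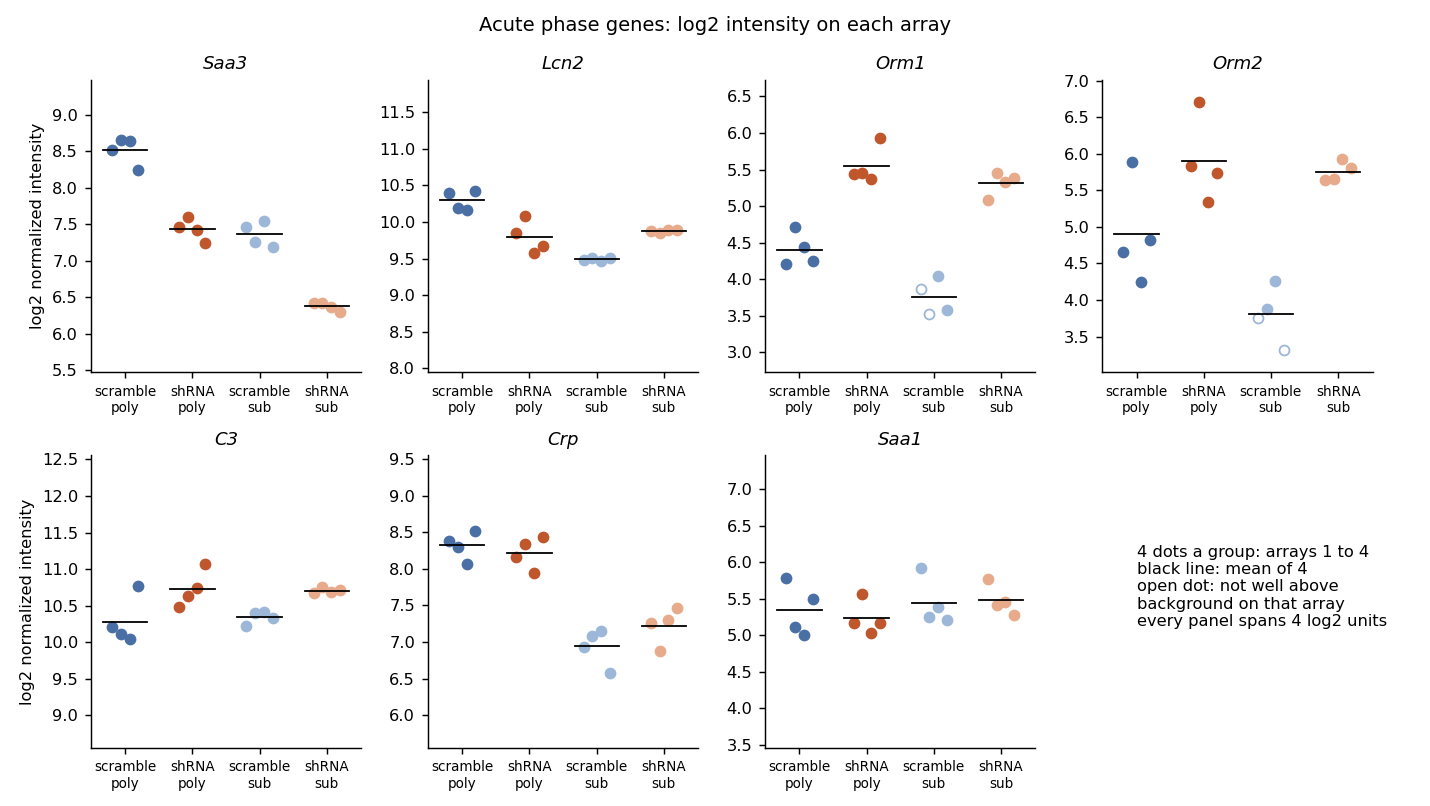
Log2 normalized intensity (y axis, 4 log2 units in every panel) of the 7 tested genes on each of the 16 arrays, by group (x axis), with the group mean as a black line and open dots for arrays on which the probe was not well above background. Saa3 was lower in shRNA cells in both fractions, Orm1 and Orm2 were higher, and Lcn2 was lower on polysomes and higher in subpolysomes.

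Saa3, a serum amyloid A form that in mice is made mostly outside the liver and by stimulated macrophages and adipocytes, was the gene of the serum amyloid A family that changed. In polysomal RNA its log2 intensity was 8.52, 8.66, 8.64 and 8.24 on the 4 scramble arrays and 7.46, 7.60, 7.42 and 7.24 on the 4 shRNA arrays. In subpolysomal RNA it was 7.46, 7.26, 7.54 and 7.18 in scramble cells and 6.42, 6.43, 6.37 and 6.30 in shRNA cells. In both fractions every shRNA array was below every scramble array. The change was -1.08 ± 0.11 (SE, 2.12-fold lower, adjusted p = 3.73e-06, limma) on polysomes and -0.98 ± 0.11 (1.98-fold lower, adjusted p = 1.41e-05) in subpolysomes. Of all tested genes, 4.49% and 4.31% had a lower value in these comparisons. The fall was seen within each of the 4 slides, from -0.64 to -1.28 on polysomes and from -0.76 to -1.18 in subpolysomes. The 2 changes were nearly equal in size, and the change in translational efficiency was -0.10 (95% interval -0.44 to 0.24, adjusted p = 0.864). Without scramble polysomal arrays 1 and 4, chosen after seeing the data, the polysomal change was -1.22 (adjusted p = 1.51e-05). With normexp background correction both changes of Saa3 were called but smaller, at -0.82 and -0.61 (adjusted p = 1.59e-06 and 4.94e-05).

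The other serum amyloid A genes gave little or no signal that changed. Saa1, with Saa2 the main acute phase form of hepatocytes, had 5.79, 5.11, 5.00 and 5.49 on scramble polysomal arrays and 5.17, 5.57, 5.03 and 5.17 on shRNA polysomal arrays. These values overlapped, as did the subpolysomal ones (5.21 to 5.92 in scramble and 5.28 to 5.78 in shRNA cells). The changes were -0.12 (95% interval -0.53 to 0.30, adjusted p = 0.761) and 0.04 (-0.38 to 0.46, adjusted p = 0.916), so changes of about 1.4-fold in either direction lay within the intervals. Saa2 and Saa4, the form made without stimulation, were well above background on 1 of 16 arrays each, in both cases subpolysomal array 2 of the shRNA cells, the array with the most probes above background. Their processed signals before normalization reached no more than 3.08 and 3.15 on the log2 scale, and no difference was tested. The reference lists Saa2 as an older symbol of Saa1 and Saa1 as one of Saa2, so the symbols are given here as in the array files.

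Lcn2 encodes lipocalin 2, which binds bacterial siderophores and so withholds iron. On polysomes its log2 intensity was 10.39, 10.20, 10.17 and 10.42 in scramble cells and 9.85, 10.08, 9.57 and 9.67 in shRNA cells. In subpolysomal RNA it was 9.48, 9.50, 9.47 and 9.51 in scramble cells and 9.88, 9.85, 9.89 and 9.90 in shRNA cells. The groups did not overlap in either fraction, with the shRNA arrays lower on polysomes and higher in subpolysomes. The changes were -0.50 ± 0.10 (1.42-fold lower, adjusted p = 0.00185) and 0.39 ± 0.10 (1.31-fold higher, adjusted p = 0.0108). The subpolysomal values lay unusually close together (SD 0.02 in both groups, n = 4).

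The 2 opposite changes of Lcn2 gave a change in translational efficiency of -0.89 ± 0.14 (1.85-fold lower, adjusted p = 0.00445), and Lcn2 was the 1 acute phase gene of 7 called in that comparison. Among all genes, 1.11% were called lower and 0.403% higher, and 3.21% had a value below that of Lcn2. It was negative within each of the 4 slides (from -0.66 to -1.10). With any single array left out it stayed between -0.82 and -0.99 (adjusted p from 0.00088 to 0.0146), and without scramble polysomal arrays 1 and 4 it was -0.78 (adjusted p = 0.0355). Scaled to the spike-in probes it was -1.10, or -0.89 relative to the median gene, but was not called (adjusted p = 1). Under that scaling 31 genes were called lower and 2 higher over the whole array, in place of 214 and 78.

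**Figure D2:**
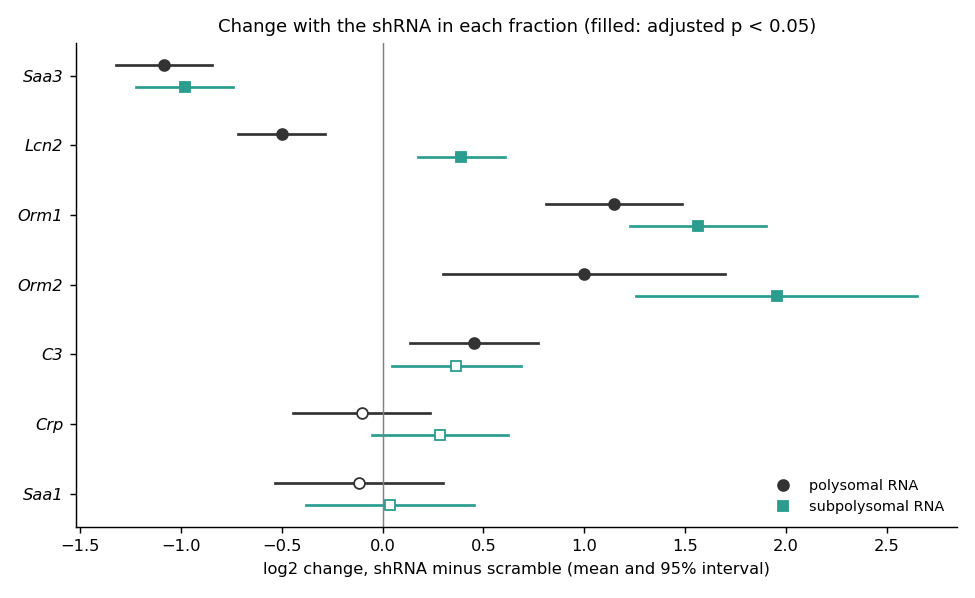
Log2 change with the shRNA (x axis, shRNA minus scramble, mean and 95% interval) of the 7 tested genes, with circles for polysomal and squares for subpolysomal RNA, filled where the adjusted p was below 0.05. Saa3 was lower by about the same amount in both fractions, and the polysomal and subpolysomal intervals of Lcn2 lay on opposite sides of 0.

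Orm1 and Orm2 encode orosomucoids (alpha-1-acid glycoproteins), plasma proteins of the lipocalin family that carry drugs and are classical glucocorticoid-responsive acute phase genes. For Orm1, polysomal values were 4.21, 4.71, 4.44 and 4.24 in scramble cells and 5.44, 5.46, 5.36 and 5.94 in shRNA cells. Its subpolysomal values were 3.87, 3.52, 4.04 and 3.57 in scramble cells and 5.09, 5.45, 5.33 and 5.39 in shRNA cells. Every shRNA array was above every scramble array in both fractions, and 2 of the 4 scramble subpolysomal arrays (1 and 2) were not well above background. The change was 1.15 ± 0.16 (2.21-fold higher, adjusted p = 6.79e-05) on polysomes and 1.56 ± 0.16 (2.96-fold higher, adjusted p = 4.26e-06) in subpolysomes. Orm1 ranked 109 of 19365 genes by its subpolysomal rise and 446 by its polysomal rise. Within the 4 slides the rise was 0.65 to 1.73 and 1.29 to 1.88. With normexp background correction both changes were called but smaller (0.38 and 0.41, adjusted p = 1.17e-04 and 6.4e-05).

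Orm2 had the largest subpolysomal change of the 7 genes, 1.95 ± 0.33 (3.87-fold higher, adjusted p = 4.87e-04), and ranked 47 of all genes. Its subpolysomal values were 3.76, 3.88, 4.25 and 3.32 in scramble cells, of which 2 (arrays 1 and 4) were not well above background, and 5.64, 5.65, 5.93 and 5.80 in shRNA cells, with no overlap. On polysomes they were 4.66, 5.89, 4.25 and 4.82 in scramble cells and 5.84, 6.71, 5.34 and 5.73 in shRNA cells. Here scramble array 2 lay above 3 of the 4 shRNA arrays, and the change of 1.00 ± 0.33 passed the test narrowly (adjusted p = 0.0406). It was not called when scramble polysomal array 1, 3 or 4 or shRNA polysomal array 1, 2 or 4 was left out (0.73 to 1.05, adjusted p from 0.055 to 0.127), and within slide 4 it was -0.55. The polysomal call of Orm2 therefore lay close to the threshold, although the change stayed above 0 with any single array left out (0.73 to 1.33). The subpolysomal change was called without any one array (1.79 to 2.10, adjusted p up to 0.00212) and was 1.68 to 2.33 within the slides. With normexp the 2 changes of Orm2 were 0.41 and 0.62 (adjusted p = 0.027 and 0.00193). In translational efficiency, Orm1 and Orm2 had -0.42 (95% interval -0.89 to 0.06) and -0.96 (-1.94 to 0.03), and neither was called (adjusted p = 0.489 and 0.422).

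C3 encodes the protein on which all routes of complement activation meet. Its polysomal values were 10.20, 10.11, 10.04 and 10.77 in scramble cells and 10.49, 10.63, 10.75 and 11.07 in shRNA cells. Scramble array 4 lay among the shRNA arrays, and the other 3 were below all of them. In subpolysomal RNA, all scramble arrays (10.22, 10.39, 10.42 and 10.33) were below all shRNA arrays (10.67, 10.76, 10.68 and 10.71). The change was 0.45 ± 0.15 (1.37-fold higher, adjusted p = 0.0416) on polysomes, and 0.37 ± 0.15 in subpolysomes, where it was not called (adjusted p = 0.0894). The SD was 0.33 on scramble polysomal arrays and 0.09 and 0.04 on subpolysomal arrays, and the test used 1 spread for all 4 groups. The polysomal call was lost without scramble array 1, 2 or 3 or shRNA array 2, 3 or 4 (0.34 to 0.49, adjusted p from 0.0549 to 0.118). Without scramble polysomal arrays 1 and 4 both changes were called, at 0.66 (adjusted p = 0.00387) and 0.37 (adjusted p = 0.0258). The 2 C3 probes gave 0.45 (adjusted p = 0.107, the probe with 10 spots) and 0.45 (adjusted p = 0.0304) on polysomes, so they differed in their spread more than in their change.

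Crp, a pentraxin that in mice responds only weakly in the acute phase, had 8.39, 8.30, 8.07 and 8.52 on scramble polysomal arrays and 8.16, 8.34, 7.94 and 8.44 on shRNA polysomal arrays. These overlapped, as did its subpolysomal values (6.58 to 7.15 in scramble and 6.87 to 7.46 in shRNA cells). The changes were -0.10 (95% interval -0.44 to 0.23, adjusted p = 0.73) and 0.29 (-0.05 to 0.62, adjusted p = 0.217). The translational efficiency of Crp changed by -0.39 (-0.87 to 0.09, adjusted p = 0.529). It was negative within each of the 4 slides, from -0.12 to -0.89. Over the 7 genes, the change in translational efficiency was below 0 for 6 and above 0 for C3 (0.09), with a median of -0.39 beside 0.02 for all genes.

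**Figure D3:**
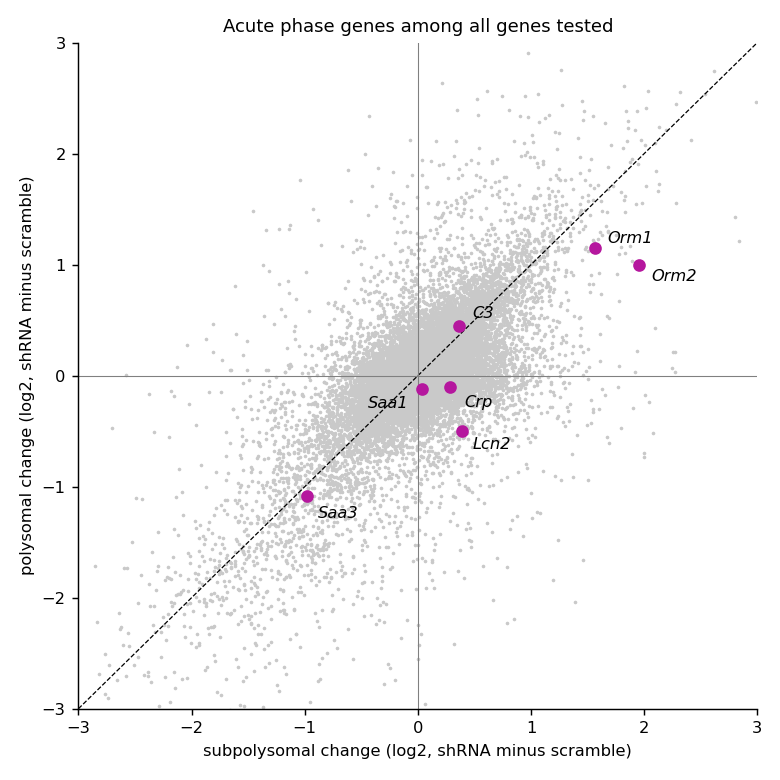
Polysomal change (y axis) against subpolysomal change (x axis), both as log2 of shRNA minus scramble, for 19285 of the tested genes (grey, 80 genes outside the axes) and the 7 acute phase genes (labelled), with a dashed line where both changes are equal. Saa3 and C3 lay near the line, Orm1 and Orm2 below it at the upper right, and Lcn2 at the lower right, with a lower polysomal and a higher subpolysomal value.

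Where each mRNA lay on the gradient was read from the difference between polysomal and subpolysomal intensity. This difference depends on the scaling, because all 16 arrays were made to share 1 distribution: the median of all genes was 0.04 in scramble and 0.03 in shRNA cells, but 1.38 and 1.41 when each fraction was normalized on its own. It is therefore read here only relative to other genes. In scramble cells, 5 of 7 genes were called higher on polysomes (Crp by 1.38 ± 0.16, Saa3 by 1.15 ± 0.11, Orm2 by 1.10 ± 0.33, Lcn2 by 0.80 ± 0.10 and Orm1 by 0.65 ± 0.16) and none was called lower, beside 31.7% of all genes called higher and 28.4% lower. In shRNA cells, 2 of 7 were called higher (Saa3 by 1.05 ± 0.11 and Crp by 0.99 ± 0.16) and none lower, beside 32.1% and 28.7%. Crp lay above 95.3% of all genes in scramble cells and above 89.2% in shRNA cells, and Saa3 above 91.8% and 90.5%. Lcn2 moved from above 83.0% of genes to above 44.0%, and the test of that shift is the change in translational efficiency given above. C3 and Saa1 lay near the middle in both populations (45.4% and 49.6% of genes below C3, 43.8% and 36.6% below Saa1). Scaled to the 75th percentile, Orm1 had -0.12 in scramble and -0.46 in shRNA cells, so its polysomal excess had no sign that held under every scaling. Scaled to the spike-in probes, or with fractions normalized separately, all 7 differences in scramble cells were above 0, as was the difference of the median gene (1.52 and 1.38).

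**Figure D4:**
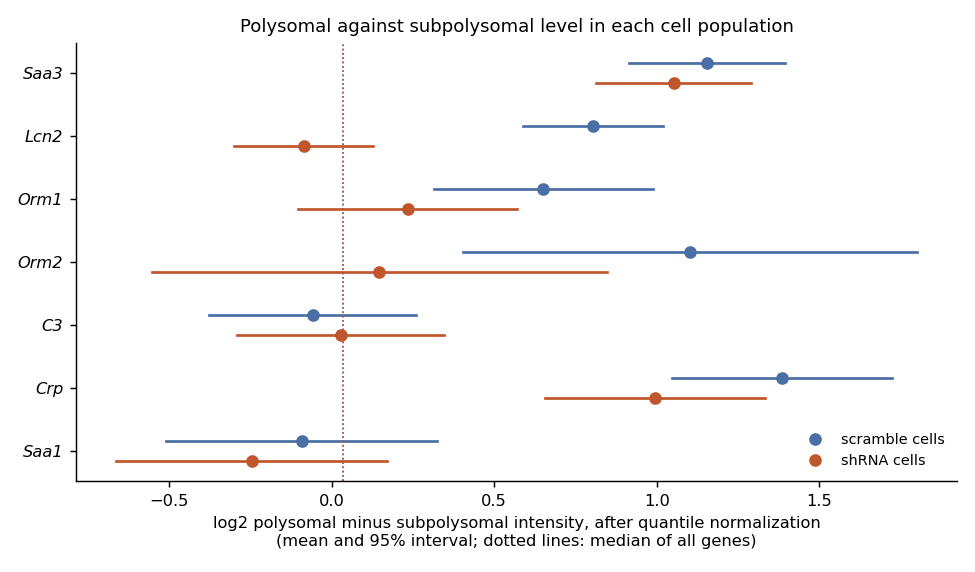
Log2 polysomal minus subpolysomal intensity (x axis, mean and 95% interval) of the 7 tested genes in scramble (blue) and shRNA (orange) cells, with the median of all genes as dotted lines. Saa3 and Crp lay to the right of the median in both populations, and Lcn2 lay to the right in scramble cells and near the median in shRNA cells.

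The letters of a C/EBP site in the promoter were compared because these factors drive acute phase genes. The RefSeq promoter table (GRCm38.p6, 250 bases before to 50 after the start) held 8 of the 9 genes, all but Orm1. The C/EBP letters TTGCNNAA, searched on both strands, were present in 7 of these 8 (Saa1, Saa2, Saa3, Saa4, Lcn2, Orm2 and C3, not Crp), beside 10.8% of all 32851 promoters in the table. The STAT letters TTCNNNGAA (8.3% of all promoters) and the usual kappaB consensus (4.51%) matched in none of the 8. The TATA letters TATAAA, held by 13.6% of all promoters, matched in 3 of the 8, at position -33 in Orm2, at -31 in Crp and after the start, at 15, in C3. Saa3, which fell, Orm2, which rose, and Saa1, which did not pass the test, all held the C/EBP letters. The promoters of a gene that fell, of one that rose and of the one with opposite changes are shown up to the last base before the start, 5′ to 3′ on the gene's strand, with C/EBP and TATA letters in capitals.
Saa3 (chr7:46715677-46715926, minus strand, GRCm38.p6): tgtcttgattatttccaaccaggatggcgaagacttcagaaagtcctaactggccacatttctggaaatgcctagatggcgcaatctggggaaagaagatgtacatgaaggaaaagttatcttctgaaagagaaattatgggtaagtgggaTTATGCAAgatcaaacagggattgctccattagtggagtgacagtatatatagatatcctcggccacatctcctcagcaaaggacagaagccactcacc
Orm2 (chr4:63362199-63362448, plus strand, GRCm38.p6): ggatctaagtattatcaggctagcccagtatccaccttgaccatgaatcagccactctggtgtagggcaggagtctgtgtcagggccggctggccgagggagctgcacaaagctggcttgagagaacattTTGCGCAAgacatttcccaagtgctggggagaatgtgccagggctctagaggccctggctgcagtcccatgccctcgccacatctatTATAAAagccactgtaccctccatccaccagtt
Lcn2 (chr2:32387740-32387989, minus strand, GRCm38.p6): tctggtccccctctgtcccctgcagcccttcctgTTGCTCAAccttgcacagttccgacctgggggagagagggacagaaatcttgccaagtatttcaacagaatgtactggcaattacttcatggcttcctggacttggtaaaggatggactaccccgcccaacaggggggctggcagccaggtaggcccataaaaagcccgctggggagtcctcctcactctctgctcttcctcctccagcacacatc
The C/EBP letters began at position -99 from the start in Saa3, where they read on the opposite strand, at -120 in Orm2 and at -216 in Lcn2. Of the C/EBP genes themselves, Cebpa was higher on polysomes (0.86, adjusted p = 1.56e-04) and in subpolysomes (1.20, adjusted p = 7.99e-06), Cebpb did not pass the test (0.13 and 0.03), and Cebpd fell on polysomes (-0.95, adjusted p = 1.88e-05) and had -0.18 in subpolysomes.

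Further acute phase genes changed in both directions too. Beside the counts in this list and those below, 10.7% of all genes were called lower on polysomes and 11.1% higher. In subpolysomes these shares were 12.3% and 11.8%. Of 24 other positive acute phase genes, 15 were tested: 6 were called higher and 2 lower on polysomes, and 5 higher and 0 lower in subpolysomes, with medians of 0.06 and 0.04 beside 0.02 for all genes. Lbp, which carries bacterial lipopolysaccharide to its receptor, rose by 1.44 ± 0.21 (adjusted p = 1.33e-04) on polysomes and 1.42 ± 0.21 (adjusted p = 1.83e-04) in subpolysomes. Cp, the copper-binding ferroxidase ceruloplasmin, rose by 1.23 ± 0.17 and 1.05 ± 0.17 (adjusted p = 6.25e-05 and 3.27e-04). The long pentraxin gene Ptx3 fell by 3.05 on polysomes (adjusted p = 3.99e-07) and had -0.52 in subpolysomes (adjusted p = 0.153). Of the 15 genes, Ptx3 was the 1 called lower in translational efficiency (-2.53, adjusted p = 0.00158, limma), and Serpina3n the 1 called higher. Among all genes, 1.11% and 0.403% were called lower and higher in that comparison. Serpina3n was well above background on 2 of 4 shRNA polysomal arrays and on no other array. It passed the filter through that group alone. It was counted among the 6 called higher, with measured means of 2.87 and 0.92 (adjusted p = 9.46e-11, limma). Those values lay near or below background, so no fold is given.

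Of 8 negative acute phase genes, whose plasma products fall during inflammation, 7 were tested, and 3 were called higher and 0 lower on polysomes (2 and 1 in subpolysomes). Ttr, the thyroxine carrier transthyretin, rose by 1.15 ± 0.10 on polysomes (adjusted p = 5.52e-07) and by 1.33 ± 0.10 in subpolysomes (adjusted p = 2.00e-07). The vitamin D carrier gene Gc rose by 0.81 (adjusted p = 0.00345) and 0.86 (adjusted p = 0.00233), and the retinol carrier gene Rbp4 by 0.41 on polysomes (adjusted p = 6.32e-04). The gene called lower in subpolysomes, named after its values were seen, was Serpina6, the glucocorticoid-binding globulin. It was well above background on 2 of 4 scramble and on no shRNA subpolysomal array. Its measured means were 3.77 and 2.03 (adjusted p = 0.0439, limma), and scramble values ran from 2.44 to 5.21. The call therefore compares values largely near background, so no fold is given.

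Among 30 genes of the cytokine signalling that drives the programme, 27 were tested, and 7 were called lower and 7 higher on polysomes, beside 5 and 4 in subpolysomes. The shares of all genes were 10.7% and 11.1% on polysomes and 12.3% and 11.8% in subpolysomes. Il6, the main inducing cytokine, was 8.06 ± 0.16 on scramble and 4.91 ± 0.07 on shRNA polysomal arrays (SD, n = 4), a change of -3.15 ± 0.23 (adjusted p = 1.15e-07), and it changed by -3.28 ± 0.23 in subpolysomes (adjusted p = 1.30e-07). Receptor genes of that cytokine family fell too: Osmr, the oncostatin M receptor, changed by -1.98 ± 0.08 and -1.78 ± 0.08 (adjusted p = 3.74e-10 and 2.28e-09), and Lifr, the leukaemia inhibitory factor receptor, changed by -1.08 ± 0.11 and -0.81 ± 0.11 (adjusted p = 5.20e-06 and 1.14e-04). Il1rap, a subunit of the interleukin-1 receptor, changed by -2.05 ± 0.37 on polysomes (adjusted p = 7.54e-04), where 2 of 4 shRNA arrays were well above background, and had -0.57 in subpolysomes. The interleukin-6 receptor genes did not pass the test (0.09 and 0.02 for Il6ra, the subunit specific to interleukin-6, and 0.07 and 0.09 for Il6st, the subunit that its family shares), nor did Stat3 (0.25 and 0.22). The called genes with the largest polysomal changes all fell, and the 7 called higher changed less. Of these 7, Jak2, named after its values were seen, rose by 0.59 ± 0.09 and 0.56 ± 0.09 (adjusted p = 2.43e-04 and 4.51e-04, limma). Genes of NF-kappaB signalling, also named after their values were seen, had higher mean log2 intensities on shRNA than on scramble polysomal arrays. Scramble and shRNA means were 8.32 and 8.89 for Nfkb1, 11.57 and 12.43 for Nfkb2, and 15.37 and 15.88 for Rela. They were 9.82 and 10.19 for Relb, 14.16 and 14.56 for Nfkbia, and 6.46 and 6.80 for Nfkbiz, whose groups overlapped.

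**Figure D5:**
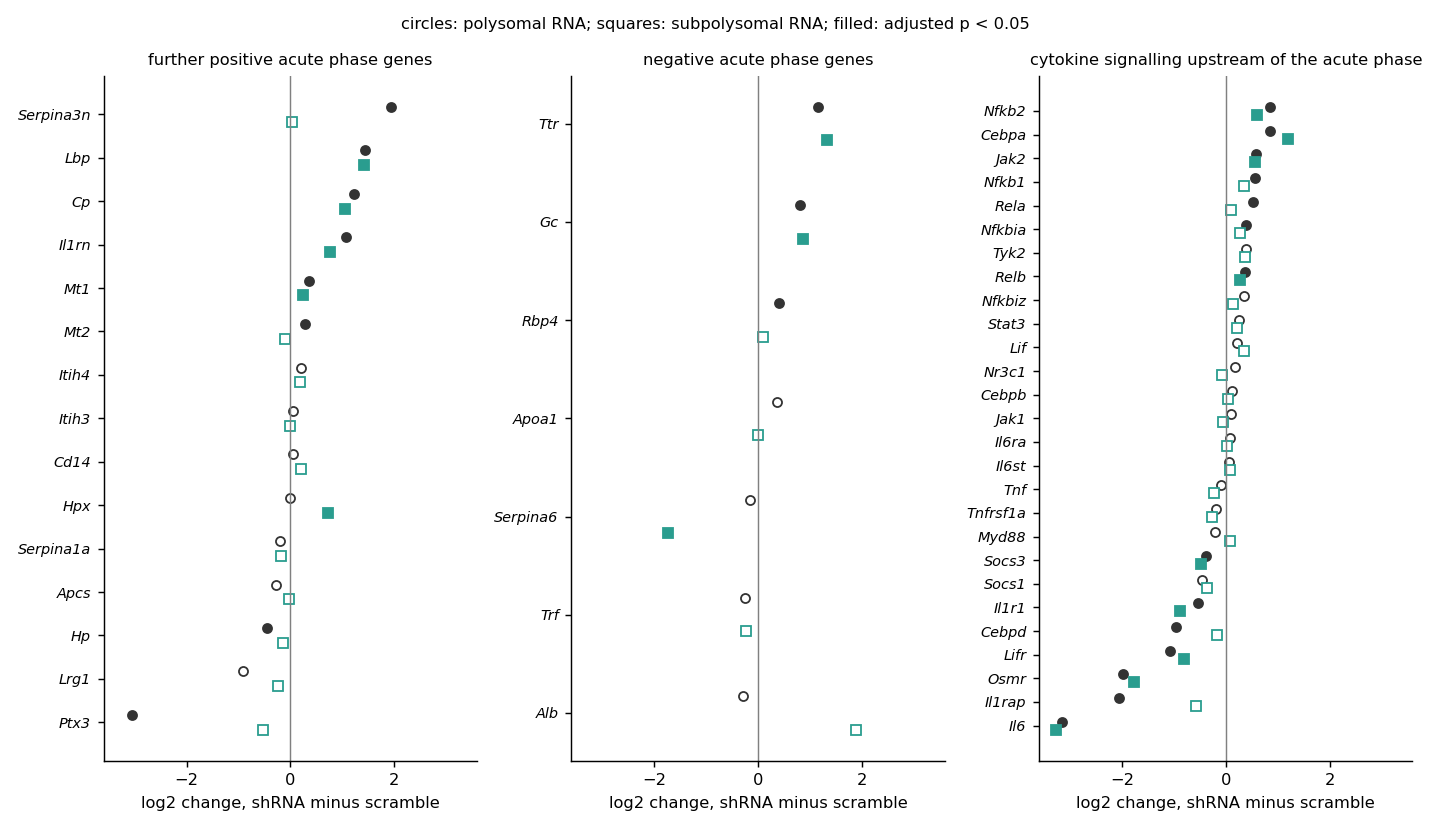
Log2 change with the shRNA (x axis, shRNA minus scramble) of the tested genes (y axis) of 3 lists: further positive acute phase genes, negative acute phase genes and cytokine signalling, with circles for polysomal and squares for subpolysomal RNA, filled where the adjusted p was below 0.05. Lbp and Cp were higher and Il6 and Osmr lower in both fractions. Serpina3n was not well above background on any scramble array.

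Around C3, 19 of 29 complement genes were tested: 4 were called higher and 3 lower on polysomes, and 5 higher and 2 lower in subpolysomes. C2, a subunit of the enzyme that cleaves C3, rose by 1.39 ± 0.26 and 1.44 ± 0.26 (adjusted p = 9.88e-04 and 8.63e-04), and Cd46, a membrane inhibitor, by 0.96 and 0.61 (adjusted p = 4.24e-04 and 0.013). C1s, a protease of the classical route, fell by 1.75 and 0.95 (adjusted p = 8.05e-07 and 4.03e-04), and C4b, which gives the other subunit of that enzyme, by 1.31 and 0.72 (adjusted p = 9.33e-04 and 0.0437). None of the 19 was called in translational efficiency, where 1.11% of all genes were called lower and 0.403% higher. The median of the 19 was -0.31 in that comparison, beside 0.02 for all genes.

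Of 13 receptors and partners of the acute phase proteins, 8 were tested, and 5 were called lower and 1 higher on polysomes (2 and 1 in subpolysomes). Slc22a17, a receptor of lipocalin 2, fell by 1.52 ± 0.15 and 1.73 ± 0.15 (adjusted p = 2.00e-06 and 8.02e-07). Mmp9, a protease that binds lipocalin 2, was well above background on 3 of 4 scramble polysomal arrays and on no other array. It passed the filter through that group alone. Its measured means were 3.40 and 1.24 (adjusted p = 4.96e-05, limma). The shRNA values lay below background, so no fold is given. Lpl, lipoprotein lipase, fell by 1.66 on polysomes (adjusted p = 2.73e-04) and had 0.06 in subpolysomes, and Tlr4, a receptor to which serum amyloid A can bind, fell by 0.70 on polysomes (adjusted p = 0.00119). In subpolysomes Tlr4 was well above background on 3 of 4 scramble arrays and 1 of 4 shRNA arrays, so the measured difference of -0.49 (adjusted p = 0.0133) was taken largely at background. Tlr2, another receptor on the list, named after its values were seen, went the other way. Its scramble and shRNA means were 7.48 and 8.11 on polysomes and 7.03 and 8.29 in subpolysomes, without overlap in either fraction.

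Genes used as markers of other cell types moved with the shRNA as well. All samples came from 1 hepatocyte line, so these genes are read here as transcripts of that culture, not as counts of other cells. All 4 tested stellate cell and fibroblast markers of 5 on the list (Col1a1, Pdgfrb, Acta2 and Des) were called lower on polysomes and 3 in subpolysomes, and the fifth, Lrat, was not well above background on any array. Their summed log2 level was 16.11 to 16.69 on scramble and 13.30 to 13.67 on shRNA polysomal arrays, and 15.33 to 15.53 and 14.01 to 14.36 on subpolysomal arrays. Of 5 tested macrophage markers, 2 were called lower on polysomes (Csf1r, -1.67, and Itgam, -0.46) and 1 in subpolysomes. The summed level of the macrophage list was 8.40 to 8.60 on scramble and 7.87 to 8.05 on shRNA polysomal arrays, 9.61 to 9.83 and 9.29 to 9.54 on subpolysomal arrays, and Clec4f, the Kupffer cell marker, was above background on 1 array. Of 5 neutrophil markers, S100a8 alone was called, lower in both fractions (-0.91 and -0.55). Of 3 adipocyte markers, Fabp4 fell (-3.10 on polysomes, where 2 of 4 shRNA arrays were above background), and Adipoq and Plin1 were not well above background on any array. None of the tested bile duct (4), endothelial (2) or hepatocyte markers was called lower. The part of these genes in the changes of Saa3, Lcn2 and the others was not tested. In bulk RNA, fewer cells of the culture holding a transcript and less of it per cell cannot be told apart.

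The genes whose profiles over the 16 arrays were closest to those of the acute phase genes were sought among 13331 other genes well above background on every array, by the root mean square difference of gene-centred log2 values. Around Saa3, whose own profile had a standard deviation of 0.77, the closest were Cdkn2a, which encodes inhibitors of the cell cycle, at 0.16, Csgalnact1, an enzyme of chondroitin sulfate synthesis, at 0.17, and 5430410E06Rik at 0.18. Their polysomal changes were -1.17, -1.04 and -1.33. Around Lcn2 (own deviation 0.31) they were Pde2a at 0.14, Naa10 at 0.15 and Gm5766 at 0.15, and all 3 had lower polysomal and higher subpolysomal values in shRNA cells, as Lcn2 had. This likeness, and that of the changes around Saa3, follows from how the genes were chosen. Around Crp (0.64) they were Galnt4 (0.12), Dnajb11 (0.13) and Sppl2a (0.14), and around C3 (0.28) Dis3l2 (0.09), Slc39a4 (0.09) and Fam21 (0.09). For Saa1 the closest, D7Ertd183e at 0.16, was large beside its own deviation of 0.27. Among Saa1, Saa3, Lcn2, C3 and Crp themselves, the smallest difference was between Saa1 and Lcn2, at 0.38, and the largest between Saa3 and C3, at 0.96. The 0.38 exceeded the own deviations of Saa1 (0.27) and Lcn2 (0.31), so it does not show a shared profile.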

How the data were processed

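Cy3-labelled polysomal and subpolysomal RNA had been hybridised by the authors to 16 1-colour Agilent 8x60K mouse arrays, on 4 slides with 1 array of each group per slide. The deposited intensity values were the scanner's processed signals, background-corrected by the authors with Agilent Feature Extraction (10.7.7.1 per the labels, 10.7.3.1 per the file headers). A further table deposited by the authors holds quantile-normalized log2 values and served as an alternative. Samples were grouped by their titles.

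Spots with outlier flags were dropped, spots of a probe were averaged on the log2 scale, and probes had to be well above background on 2 or more of the 4 arrays in some group (25260 of 39429 probes). Quantile normalization over all arrays followed, and a gene was the mean of its kept probes. Group means were fitted with limma 3.58.1 (R 4.3.3) in 1 model over all arrays, and Benjamini-Hochberg adjustment covered 19365 genes, with a threshold of 0.05. The fit was tested on simulated data. P-values measure the spread between these arrays of 1 cell line, and 4 arrays per group limit the precision. A fold change can be compressed by array background and by normalization to 1 distribution.

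The genes and lists were chosen with earlier results of these data known. All 9 genes were named, with the 4 called genes of each list with the largest polysomal change, the C/EBP genes and 3 closest genes per gene detected on every array. Alternatives were 75th percentile and spike-in scaling, separate normalization of fractions, normexp background correction with offset 50, 2 other filters, the brightest probe, the authors' log2 table, a replicate or slide block, single probes and each array left out; leaving out scramble polysomal arrays 1 and 4 was added after seeing the data.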

Additional observations from a re-analysis of the deposited data

Results flagged for a closer look

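The highest of the 4 shRNA polysomal values of Orm1 (array 4, 5.94) stood apart from the other 3 (5.36 to 5.46), with a gap of 0.839 of the group's range, above Dixon's critical value for 4 samples. It was the 1 such case among 28 groups of 4, where chance gives about 1 in 20. Without that array the polysomal change of Orm1 was called, as it was with every other array left out (1.02 to 1.25). The change of Lcn2 differed between polysomal and subpolysomal RNA by -0.89 on the log2 scale, by the test of the difference itself.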

How the results depend on the processing

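Of 721 values recomputed for the 7 genes, 656 kept their direction and side of the threshold, 28 were no longer called, 9 became called and 28 turned in sign. With spike-in scaling 1 gene was called on polysomes, 0 in subpolysomes and 0 in translational efficiency, and 6 were called between fractions in shRNA cells, where 75th percentile scaling gave 4 and separate normalization of fractions 7. Without the filter, 3 were called on polysomes. With single arrays left out, the counts were 3 to 4 on polysomes, 4 to 5 in subpolysomes, 1 in translational efficiency, and 5 and 2 between fractions. Values that turned in sign belonged to Saa1, Crp and C3 or to differences between fractions. With spike-in scaling they were -0.24 for Saa1 and -0.034 for Crp in subpolysomes, -0.081 for C3 in translational efficiency, 1.14 for Saa1 and 1.76 for C3 between fractions in scramble cells, and 0.70 for Saa1 and 1.48 for Lcn2 in shRNA cells. With separate normalization they were 0.99 and 1.65 for Saa1 and C3 in scramble cells and 0.83 and 1.58 for Saa1 and Lcn2 in shRNA cells. With 75th percentile scaling Orm1 had -0.12 in scramble cells, and Orm1 and Orm2 had -0.46 and -0.49 in shRNA cells. The brightest probe gave C3 -0.039 in shRNA cells. Without scramble polysomal arrays 1 and 4, chosen after seeing the data, Saa1 had 0.18 and Crp 0.029 on polysomes, and Saa1 0.14 in translational efficiency. With single arrays left out, Saa1 ran from -0.23 to 0.031 on polysomes, from -0.060 to 0.20 in subpolysomes and from -0.24 to 0.067 between fractions in scramble cells. C3 ran from -0.027 to 0.25 in translational efficiency, from -0.22 to 0.023 between fractions in scramble cells and from -0.084 to 0.11 in shRNA cells, and Orm2 from -0.12 to 0.34 in shRNA cells. The cause was not tested. The deviations of arrays with the same replicate number correlated at -0.16 to 0.41. Across fractions, 1 of 16 arrays was closest to its own number. With the replicate number as a block, 5, 4, 1, 5 and 2 genes were called in the 5 comparisons, as without it. By slide the correlations were -0.07 to 0.25, and 13 of 16 arrays were closest to an array on their own slide. The main fit held no slide term. With the slide as a block, 2209 of all genes were called lower on polysomes and 2283 higher, in place of 2072 and 2144. Orm1 and Orm2 lay near background in scramble subpolysomal RNA, which limits the precision of their folds.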
